A study of Mus musculus with 7 samples.

Results

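The circadian clock genes examined here are Clock, Per1, Per2, Per3, Cry1, Nr1d1, Nr1d2, Dbp, Tef and Nfil3. They were taken by gene symbol from the probe sets of a mouse expression array, where all 10 genes were present with 13 probe sets among 12422 that are not controls. Of these, 11 probe sets covering all 10 genes reached the filter on low signals that 8421 probe sets of the array passed. The other 2 are further probe sets for Cry1 that were dim on every array, with highest signals of 19.7 and 21.2. Cry1 is therefore described by its remaining probe set.

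The study followed the uterus of ovariectomized C57BL/6 mice after an injection of dihydrotestosterone (DHT), the potent androgen that aromatase cannot turn into estrogen. Females aged 10 to 11 weeks per the labels lost their ovaries 7 days before death and received 0.1 mg DHT per mouse under the skin at 1, 3, 6, 12, 18 or 24 h before death. The control group received vehicle 24 h before death, so only the 24 h DHT group matches it in hours after injection. Each group was 1 pool of uteri on 1 array, 7 arrays in all, and the labels do not say how many mice went into a pool. The labels also give 4 weeks of acclimation after arrival at that age, and a design text that names 0.5 h and not 18 h, where the array titles were followed. Lights were on for 12 h a day, but the labels do not say at which clock hour the animals were injected or killed. Hours after DHT, hours after handling and the hour of the day therefore cannot be told apart on these arrays.

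The clock is a loop of transcription that runs over about a day in nearly every cell. CLOCK and its partner BMAL1 (encoded by Arntl) bind E-boxes and switch on the Per and Cry genes, whose proteins then block CLOCK and BMAL1. The same pair switches on Nr1d1 and Nr1d2, which encode the nuclear receptors REV-ERB alpha and beta, and these repress Arntl, Clock, Cry1 and Nfil3 through ROR elements. Dbp and Tef encode activators of the PAR bZIP family that bind D-boxes, while NFIL3 represses through the same boxes. In peripheral tissues the REV-ERB and PAR bZIP genes typically peak together and ahead of Per2, with Cry1 later and Clock, Arntl and Nfil3 near the opposite phase. Per1 also answers directly to glucocorticoids and to cAMP signalling.

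Letters that match response elements of the loop can be read in the DNA just before the start sites of several of these genes. RefSeq promoters (GRCm38.p6) were found for 9 of the 10 genes, with 13 start sites, and were searched on both strands over the 250 bases before each start. The sequences below, 5′ to 3′ on the strand of the gene, are shown because each holds a match to such an element, which is printed in capitals.

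Per1, chr11:69098699-69098948, + strand, with an E-box (CACGTG) that begins 166 bases before the start:
Per1: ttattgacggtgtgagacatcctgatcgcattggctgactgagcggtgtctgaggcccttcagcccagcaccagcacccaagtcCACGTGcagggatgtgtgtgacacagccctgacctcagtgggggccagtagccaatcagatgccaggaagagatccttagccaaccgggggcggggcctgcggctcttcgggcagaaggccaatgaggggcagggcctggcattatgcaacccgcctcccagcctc
Cry1, chr10:85185055-85185304, - strand, with the related E′-box (CACGTT, here as its reverse complement) 79 bases and an E-box 60 bases before the start:
Cry1: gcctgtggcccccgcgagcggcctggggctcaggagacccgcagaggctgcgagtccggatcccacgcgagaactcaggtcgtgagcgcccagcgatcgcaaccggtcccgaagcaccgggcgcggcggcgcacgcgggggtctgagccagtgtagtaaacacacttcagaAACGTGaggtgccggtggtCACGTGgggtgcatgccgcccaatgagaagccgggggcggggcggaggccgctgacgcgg
Nr1d1, chr11:98775378-98775627, - strand, with an E′-box (as its reverse complement) 28 bases before the start:
Nr1d1: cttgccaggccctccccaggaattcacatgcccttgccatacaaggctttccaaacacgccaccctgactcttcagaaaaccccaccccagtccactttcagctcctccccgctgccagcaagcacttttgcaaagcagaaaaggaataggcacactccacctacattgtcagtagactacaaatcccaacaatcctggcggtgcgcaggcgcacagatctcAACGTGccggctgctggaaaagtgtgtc
Tef, chr15:81802423-81802672, + strand, with an E-box 127 bases before the start:
Tef: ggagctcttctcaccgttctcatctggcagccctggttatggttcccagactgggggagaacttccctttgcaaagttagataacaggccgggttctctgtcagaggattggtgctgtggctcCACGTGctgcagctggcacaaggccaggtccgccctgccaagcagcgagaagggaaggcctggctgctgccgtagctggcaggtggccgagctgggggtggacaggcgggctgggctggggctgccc
Per3, chr4:151044666-151044915, - strand, with 2 D-boxes (TTATGTAA) that begin 205 and 158 bases before the start:
Per3: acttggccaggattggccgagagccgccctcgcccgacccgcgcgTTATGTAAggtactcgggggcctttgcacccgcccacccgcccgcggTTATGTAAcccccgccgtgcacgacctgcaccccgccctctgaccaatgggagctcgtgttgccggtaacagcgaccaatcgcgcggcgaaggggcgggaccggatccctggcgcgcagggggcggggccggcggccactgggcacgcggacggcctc
Nfil3, chr13:52981040-52981289, - strand, with a ROR element (TAGGTCA, here as its reverse complement) 12 bases before the start:
Nfil3: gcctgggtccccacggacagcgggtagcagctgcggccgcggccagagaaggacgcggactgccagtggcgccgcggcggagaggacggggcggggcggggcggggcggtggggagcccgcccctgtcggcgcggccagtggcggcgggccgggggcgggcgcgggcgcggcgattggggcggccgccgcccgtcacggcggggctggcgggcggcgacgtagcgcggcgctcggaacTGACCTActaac

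Both Tef start sites held an E-box, so that 4 of the 13 start sites, from 3 genes, had one, while 6.02% of 32851 promoters of the same length did. The E′-box was found at 2 of the 13 start sites (3.85% of all promoters), and the D-box, searched as TTATGTAA or TTACGTAA, at 1 (0.931%). The ROR element, searched as TAGGTCA or TGGGTCA, was found at 1 start site (5.38%). None of the 9 genes held the cAMP response element TGACGTCA (1.55%) or the palindromic steroid receptor element (0.00913%) in this window. Clock, Nr1d2 and Dbp held none of these letters there. A match is only a run of letters, and no binding was measured.

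Values are signal intensities on a linear scale as deposited, all arrays sharing a trimmed mean of 499.9. A floor of 145.9, below which 40% of the values lay, was put under all signals before log2 was taken, so a ratio that touches the floor is a bound. The 3 prime to 5 prime ratio of the Gapdh controls, a measure of RNA integrity, lay between 0.828 and 0.888 on the 7 arrays, and that of beta-actin between 1.03 and 1.19. With 1 array per time, single times are described without a test.

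Clock, which encodes an activator of the loop, varied least of the 11 probe sets. Its signal was 309.6 on vehicle and 274.0, 281.8, 289.6, 351.5, 322.6 and 318.4 at 1, 3, 6, 12, 18 and 24 h after DHT. The 3 late arrays (12, 18 and 24 h) lay above the 3 early arrays (1, 3 and 6 h) without overlap, as they did for 8.18% of all probe sets. The late mean exceeded the early mean by 0.23 ± 0.10 (log2, SE), which did not pass the test (adjusted p = 0.517 in limma). From lowest to highest array Clock spanned 1.28-fold, and 80.3% of all probe sets spanned as much or more.

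Among the repressors, Per1 had the highest ratios to vehicle in the early hours. Its signal was 241.2 on vehicle, then 397.1, 339.3 and 476.0 on the early arrays in order of time, and 293.2, 242.3 and 257.0 on the late ones. Every early array was above every late array (6.61% of all probe sets behaved so), and the vehicle array was the lowest (22.4%, ties counted). At 1 h it was 0.72 above vehicle on the log2 scale, a distance that 3.67% of all probe sets reached in either direction, and at 6 h it was 0.98 above, reached by 2.60%. The late mean was lower than the early mean by 0.60 ± 0.16 (log2 difference -0.60, SE), the lowest p among the 11 probe sets (adjusted p = 0.337 in limma over 8421 probe sets). Early against vehicle the difference was 0.73 ± 0.23 (adjusted p = 0.676 in limma). With the floor raised to the 60th percentile these differences shrank to -0.18 and 0.18, since several Per1 signals lie under that floor.

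Per2, the repressor whose level follows that of Per1 by some hours in most tissues, was faint. It had 148.8 on vehicle, just above the floor, then 104.1, 190.3, 233.4, 94.1, 62.0 and 145.2 at 1 to 24 h. Only the 3 h and 6 h arrays stood clear of the floor, at 0.35 and 0.65 above vehicle on the log2 scale. With the floor lowered to the 20th percentile, 40.9, the ratios became -0.52 at 1 h, -0.66 at 12 h and -1.26 at 18 h. Late minus early came to -0.35 ± 0.17 (SE) with the main floor and -0.82 with the lower one, and passed with neither (adjusted p = 0.537 and 0.630 in limma).

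Cry1, the strongest repressor of CLOCK and BMAL1, was likewise highest at 6 h. Its signal was 601.2 on vehicle and 560.4, 836.6, 935.1, 733.9, 554.0 and 506.8 at 1 to 24 h. The 3, 6 and 12 h arrays lay above vehicle (log2 ratios of 0.48, 0.64 and 0.29), and the other 3 below it. This probe set carries the maker's suffix f, given where probes also match other sequences, and the remaining Cry1 probe sets offer no check. Late and early overlapped (difference -0.36 ± 0.24 SE, adjusted p = 0.674 in limma).

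Per3, a weaker member of the family, ran the other way. It had 424.4 on vehicle, its highest value, and 347.6, 375.2, 255.3, 304.3, 367.0 and 338.2 at 1 to 24 h. Of all probe sets, 16.8% were highest on vehicle. Where Per1, Per2 and Cry1 were highest, at 6 h, Per3 was lowest, at 0.73 below vehicle (log2 ratio -0.73). Late exceeded early by only 0.06 ± 0.18 (SE, adjusted p = 0.936 in limma).

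**Figure D1:**
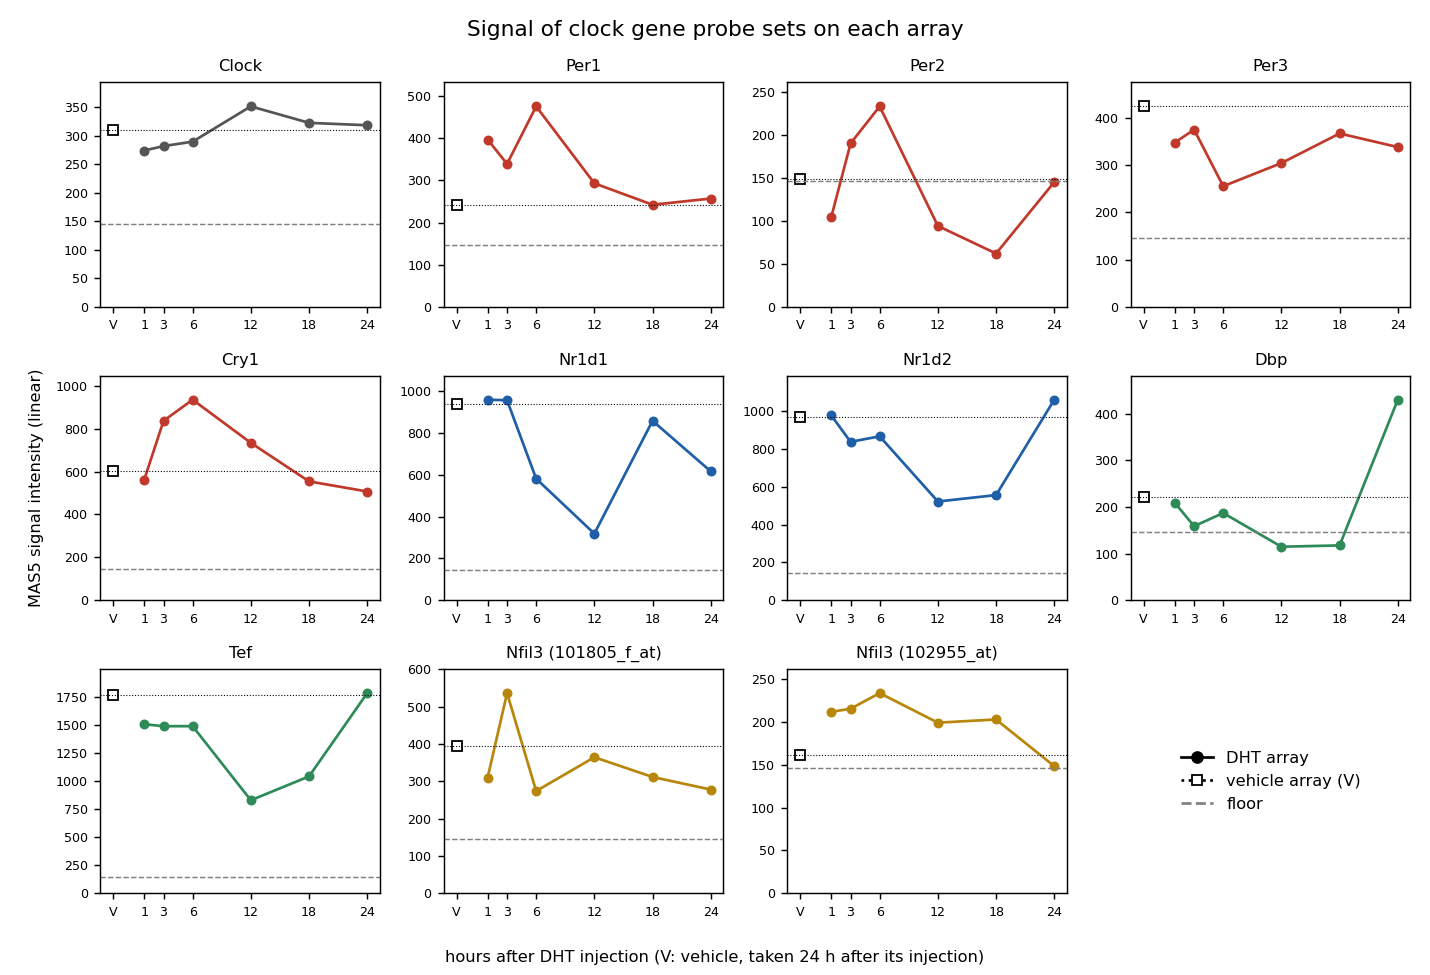
Signal intensity on a linear axis from 0 against hours after DHT injection for the 11 clock gene probe sets above the filter, 1 array per point. The open square (V) and dotted line give the vehicle array and the dashed line the floor of 145.9. Per1, Per2 and Cry1 are highest at 6 h, and Nr1d1, Nr1d2 and Tef are lowest at 12 h.

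With the floor in place, Nr1d1 had the widest swing of the set. Its signal was 939.0 on vehicle and 959.7, 957.4, 581.6, 318.3, 858.8 and 616.7 at 1 to 24 h. At 12 h it was 2.95-fold below vehicle, and 0.463% of all probe sets were as far from vehicle in either direction on that array. Between 12 and 18 h it came back to near the vehicle level, and at 24 h it was lower again (log2 ratio to vehicle of -0.61). Late minus early came to -0.55 ± 0.41 (SE, adjusted p = 0.715 in limma), and to -0.16 without the 12 h array.

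Nr1d2, which encodes the partner repressor REV-ERB beta, was low at both 12 and 18 h. It had 970.4 on vehicle, 978.0, 837.6 and 866.7 on the early arrays, and 521.8, 555.8 and 1060.4 on the late ones. The log2 ratios to vehicle were -0.90 at 12 h and -0.80 at 18 h against 0.13 at 24 h, so that it was 1.91-fold higher at 24 h than 6 h earlier. Both REV-ERB genes were lowest at 12 h, but at 18 h Nr1d1 was near vehicle while Nr1d2 was not. The high 24 h array left the late mean of Nr1d2 only 0.40 below the early mean (log2 difference -0.40 ± 0.29 SE, adjusted p = 0.697 in limma).

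Tef had nearly the profile of Nr1d2. Its signal was 1771.1 on vehicle, 1507.2, 1489.6 and 1489.7 on the early arrays, and 830.0, 1042.6 and 1784.2 on the late ones. The 12 h array was 2.13-fold below vehicle and the 18 h array 1.70-fold below. The 24 h array matched vehicle, with a log2 ratio of 0.01. As for Nr1d2, 2 low arrays and 1 high array among the late ones overlapped the early ones (difference -0.37 ± 0.28 SE, adjusted p = 0.717 in limma). Without the 12 h array the difference of Tef was -0.13 and that of Nr1d2 -0.22, and without the 24 h array they were -0.68 and -0.73. Without the 18 h array that of Nr1d2 was -0.26.

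Dbp, a PAR bZIP gene switched on through E-boxes and among the widest-swinging clock outputs in other tissues, was also lowest at 12 and 18 h but highest at 24 h. It had 221.8 on vehicle, 209.3, 158.8 and 187.1 on the early arrays, and 114.7, 117.5 and 430.5 on the late ones. The 12 and 18 h signals were under the floor, which makes their ratio of -0.60 (log2) a bound, and with the lower floor they were -0.95 and -0.92. At 24 h Dbp was 1.94-fold above the vehicle pool taken at the same hour after injection, a distance that 2.27% of all probe sets reached there. Late exceeded early by 0.19 ± 0.45 (SE, adjusted p = 0.910 in limma), a difference that turned to -0.33 without the 24 h array and to -0.03 with the lower floor.

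Nfil3, whose product opposes DBP and TEF at D-boxes, had 2 probe sets that gave different profiles. The brighter one had 393.7 on vehicle and 310.4, 536.3, 274.2, 364.6, 311.8 and 278.1 at 1 to 24 h, with its highest value at 3 h, and it carries the same suffix f as that of Cry1. The dimmer one had 161.3 on vehicle and 211.3, 214.9, 233.1, 198.7, 202.4 and 148.1, with its highest at 6 h. They stood on opposite sides of vehicle at 1, 6, 12 and 18 h. On the dimmer probe set every late array was below every early one, as for 6.61% of all probe sets (difference -0.28 ± 0.14 SE, adjusted p = 0.547 in limma). On the brighter one the late and early arrays overlapped (-0.18 ± 0.28 SE, adjusted p = 0.860 in limma). No direction is given for Nfil3.

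**Figure D2:**
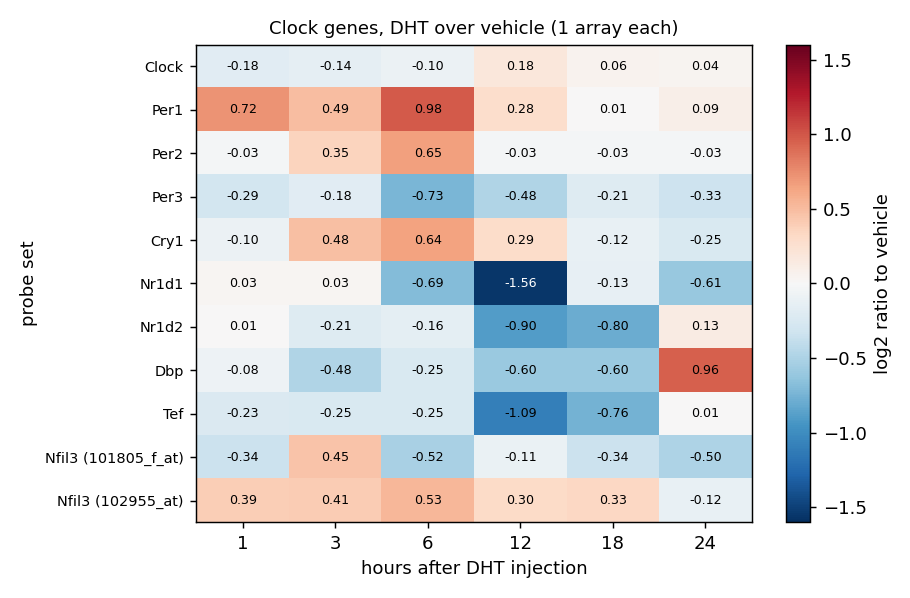
Log2 ratio to the vehicle array at each hour after DHT for the 11 clock gene probe sets, with signals under the floor raised to it. Blue marks lower and red higher than vehicle. The lowest value is that of Nr1d1 at 12 h, -1.56, and the highest those of Per1 at 6 h, 0.98, and Dbp at 24 h, 0.96.

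Several of the genes shared the array of their highest or lowest value. Per1, Per2, Cry1 and the dimmer probe set of Nfil3 were highest on the 6 h array, 4 of 11 probe sets, while 13.3% of all probe sets were highest there. Per3 and the brighter probe set of Nfil3 were lowest on that array, 2 of 11 against 22.7% with ties counted. Nr1d1, Nr1d2, Dbp and Tef were lowest on the 12 h array, as was Per2 at the floor, 5 of 11 against 23.0% of all probe sets with ties counted, Per2 and Dbp being tied with other arrays at the floor. On the 24 h array Nr1d2, Dbp and Tef were highest, 3 of 11 against 13.1%. The median range over the 7 arrays was 0.97 on the log2 scale for the 11 probe sets and 0.57 for all probe sets.

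Few of these distances reached 2-fold. Only at 12 h were members at least 2-fold from vehicle with the higher signal at 291.8 or more, namely Nr1d1 and Tef, 2 of 11, both lower. On that array 1.39% of all probe sets were as far below vehicle. The share of all probe sets 2-fold from vehicle in either direction was 1.13%, 2.01% and 2.45% on the early arrays in order of time. It was 2.41% and 1.92% on the 18 and 24 h arrays. At 1.5-fold the members were Per1 above vehicle at 1 h (2.22% of all probe sets were above by that much), Per1 and Cry1 above (5.58%) and Per3 and Nr1d1 below (5.39%) at 6 h. There followed Nr1d1, Nr1d2 and Tef below at 12 h (6.19%), Nr1d2 and Tef below at 18 h (4.52%), and Dbp above (4.11%) and Nr1d1 below (4.42%) at 24 h. At 3 h no member was 1.5-fold from vehicle, whereas 7.59% of all probe sets were.

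Steps between neighbouring arrays do not involve the vehicle array. From 6 to 12 h the log2 signal was lower by 0.87 for Nr1d1, 0.84 for Tef, 0.73 for Nr1d2, 0.70 for Per1 and 0.35 for Cry1 (differences of -0.87, -0.84, -0.73, -0.70 and -0.35). Per2 and Dbp, under the floor at 12 h, were lower by at least 0.68 and 0.36 (-0.68 and -0.36). The dimmer Nfil3 probe set was lower too (-0.23). Clock, Per3 and the brighter Nfil3 probe set were higher over the same step, by 0.28, 0.25 and 0.41. From 18 to 24 h Dbp was higher by at least 1.56, Nr1d2 by 0.93 and Tef by 0.78, while Nr1d1 (-0.48) and the dimmer Nfil3 probe set (-0.45) were lower. Clock, Per3, Cry1 and the brighter Nfil3 probe set were lower by less (-0.02 to -0.17), and Per1 was higher by 0.08. Per2 was at the floor on both arrays. The share of all probe sets with steps of these sizes was not counted.

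The tests compared 3 early arrays, 3 late arrays and the vehicle array with limma, and the spread they use is that between different hours within a phase. None of the 11 probe sets passed after Benjamini-Hochberg adjustment over 8421 probe sets. For early against vehicle 0.273% of all probe sets passed, all lower, and for late against vehicle 0.309%, all lower. A probe set above the floor only on vehicle has no spread within a phase, which can favour lower calls. How many of the calls against vehicle arose so was not counted, so their shared direction is not read as a result. For late against early 0.00% passed. At an unadjusted p under 0.05 there was 1 member probe set, Per1, for early against vehicle (533 probe sets in all, 6.33%) and again for late against early (863, 10.2%), and none for late against vehicle (987, 11.7%). Late minus early was below 0 for 8 of the 11, with a median of -0.35, while 50.5% of all probe sets were below 0. A gene that dips inside a phase, as Tef and Nr1d2 did at 12 and 18 h, puts its own course into the error of these tests.

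A cosine with a period of 24 h was therefore fitted to each probe set over all 7 arrays, with vehicle placed at 24 h, when it was taken. This treats hours after injection as hours of a day, which holds only if all animals were injected at the same hour, and the labels do not say so. The fit also has no term for DHT, so any response to DHT enters the amplitude and the fitted peak. Tef and Nr1d2 fitted best among the members, with amplitudes of 0.51 ± 0.08 and 0.51 ± 0.08 (log2, SE) and fitted peaks at 1.4 and 1.9 h. Their p-values ranked 29 and 48 of 8421, and neither passed (adjusted p = 0.256 and 0.273 in limma). In limma no probe set of the array passed this test (0.00%), and 1008, or 12.0%, had an unadjusted p under 0.05, among them 5 of the 11 members.

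The other 3 with an unadjusted p under 0.05 were Cry1 (amplitude 0.48 ± 0.12 SE, fitted peak at 8.0 h, adjusted p = 0.345 in limma), Nr1d1 (0.66 ± 0.19, 23.1 h, adjusted p = 0.373) and Per2 (0.35 ± 0.11, 6.8 h, adjusted p = 0.416). Per1 had an amplitude of 0.50 ± 0.17 with a fitted peak at 6.7 h, and Dbp 0.45 ± 0.23 with one at 23.9 h. The fitted peaks thus lay between 23.1 and 1.9 h for the REV-ERB and PAR bZIP genes and between 6.7 and 8.0 h for Per1, Per2 and Cry1. Per3 was fitted at 20.9 h (0.28 ± 0.13) and Clock at 15.1 h (0.14 ± 0.09). The brighter Nfil3 probe set was fitted at 5.0 h (0.09 ± 0.22) and the dimmer one at 8.9 h (0.22 ± 0.13), both with amplitudes within 2 SE of 0. The amplitudes of Dbp and Clock were also within 2 SE of 0, so their fitted peaks are loosely placed too. The median amplitude was 0.45 for the 11 probe sets and 0.18 for all probe sets. Some of these values depended on single arrays or on the floor. Without the 12 h array the amplitude of Nr1d1 was 0.30, and without the 24 h array that of Dbp was 0.25. That of Per2 was 0.18 without the 6 h array, 0.64 without the 18 h array and 0.91 with the floor at the 20th percentile. With the floor at the 60th percentile that of Per1 was 0.16 and that of Dbp 0.05. Those of Tef and Nr1d2 stayed between 0.45 and 0.56 in all alternatives run.

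**Figure D3:**
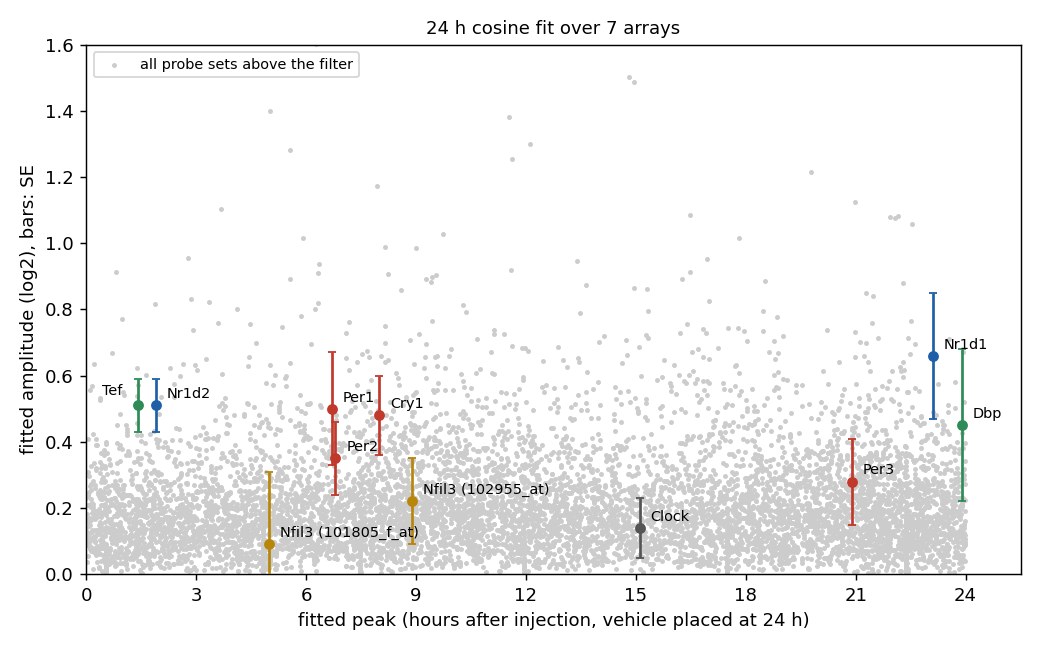
Amplitude (log2) against fitted peak hour from a 24 h cosine over 7 arrays, with SE bars for the 11 clock gene probe sets and grey points for all 8421 probe sets, of which 1 lies above the plotted limit of 1.6. Per1, Per2 and Cry1 sit between 6.7 and 8.0 h, and Nr1d1, Dbp, Tef and Nr1d2 between 23.1 and 1.9 h, across the turn of the axis. The amplitudes of Dbp, Clock and both Nfil3 probe sets lie within 2 SE of 0.

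The remaining genes of the pathway were taken from a list of 32, of which 22 were on the array and 19 passed the filter, each read from its brightest probe set. None passed in any of the 4 tests, in either direction, and 4 of 19 had an unadjusted p under 0.05 in the cosine fit (12.2% of all genes did). Late against early, 12 of 19 were lower with a median difference of -0.12, and 50.7% of all genes were lower. Npas2, a stand-in for CLOCK, was under the floor on every array, as were Sirt1 and Tsc22d3.

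Arntl, which encodes BMAL1 and in other tissues runs opposite to the REV-ERB genes, had no such profile here. Its signal was 610.4 on vehicle and 562.8, 546.3, 579.8, 474.0, 410.2 and 372.9 at 1 to 24 h. The 3 late arrays lay below the 3 early ones, as for 6.61% of all probe sets, and 24 h was lowest. Late and early means differed by -0.43 ± 0.12 (SE, adjusted p = 0.354 in limma). At 12 h, where Nr1d1 and Nr1d2 were lowest, Arntl was 0.36 below vehicle (log2 ratio -0.36).

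Bhlhe40, which encodes a further E-box repressor, was highest at 6 h as Per1 was, with 539.4 on vehicle and 485.2, 615.6, 689.1, 452.1, 403.5 and 508.2 at 1 to 24 h. Usp2, which encodes a deubiquitinase cycling in many tissues, was lowest at 18 h on its brighter probe set, with 943.2 on vehicle and 862.6, 738.5, 838.9, 641.9, 543.7 and 765.2. Tspan4, a tetraspanin gene that cycles in many organs, had 822.1 on vehicle and 693.2, 841.7, 905.5, 565.0, 443.8 and 537.5. Tspan4 had every late array below every early one, as 6.61% of all probe sets did. For Bhlhe40 and the brighter Usp2 probe set the 24 h array overlapped the early ones. The dimmer Usp2 probe set also overlapped, with 311.1 at 12 h against 248.3 at 3 h. Among these 3 genes the difference of Tspan4 between late and early was largest (-0.66 ± 0.15 SE, adjusted p = 0.291 in limma).

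Cry2, the second cryptochrome gene, was below vehicle at all 6 times, from -0.29 at 3 h to -0.58 at 24 h (log2 ratio), and did not share the 6 h maximum of Cry1. Csnk1e, a kinase that marks PER proteins for decay, was also below vehicle throughout, down to -0.81 at 12 h. Its relative Csnk1d lay within 0.28 of vehicle on its brightest probe set. Wee1, a mitotic brake controlled by E-boxes, was under the floor on vehicle and at least 1.01 above it at 6 h (log2). Among the brightest probe sets it was the only listed pathway gene at least 2-fold from vehicle at any time. Alas1, the entry enzyme of heme synthesis, was above vehicle by 0.35 to 0.60 at all 6 times. Over all probe sets, the vehicle array was the highest of the 7 for 16.8%, and the lowest for 22.4% with ties counted.

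**Figure D4:**
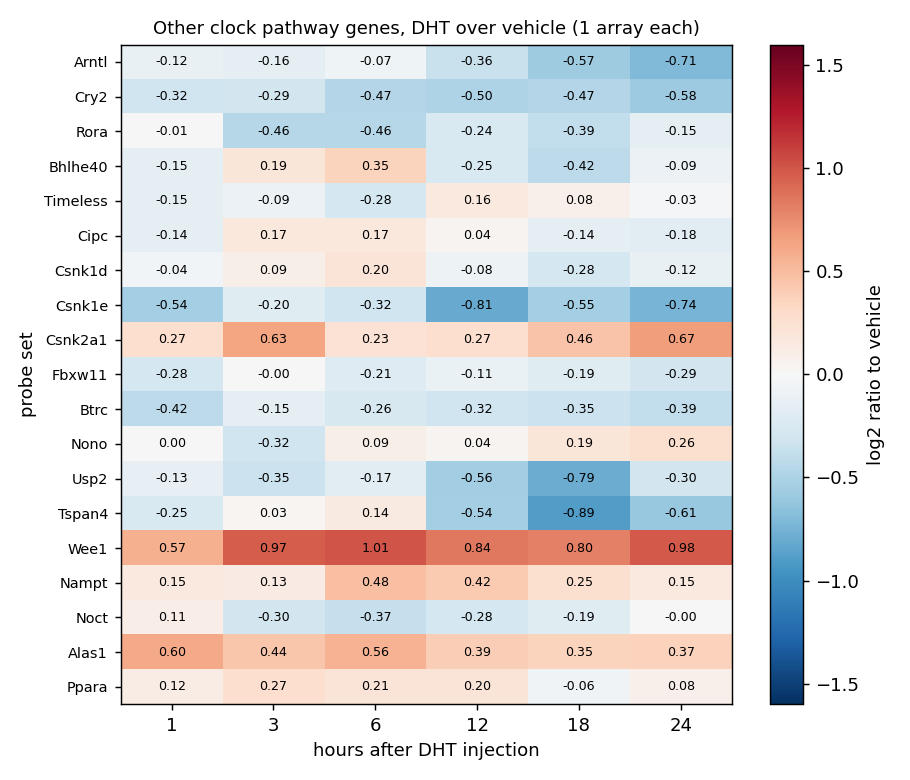
Log2 ratio to the vehicle array at each hour after DHT for 19 further genes of the clock pathway, brightest probe set each, on the same colour scale as the clock gene ratios. Arntl reaches -0.71 at 24 h and Tspan4 -0.89 at 18 h, while Wee1 is above vehicle at every time.

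Since Per1 answers to glucocorticoids and to cAMP, lists of such targets were read on the same arrays. The 11 of 13 glucocorticoid targets above the filter had median log2 ratios to vehicle of 0.37, 0.55, 0.59, 0.27, 0.31 and 0.21 at 1 to 24 h. Early means were above vehicle for 9 of the 11 and below it for 2, and late means for 8 and 3. Per1 had 0.72, 0.49 and 0.98 at 1, 3 and 6 h, lower at 3 h than at 1 h where the list's median was higher, and 0.01 at 18 h. Fkbp5, whose product tunes steroid receptors, was 2.44 to 2.78 above vehicle from 6 to 18 h. Zbtb16, a zinc finger repressor, was 2.16 above it at 3 h, where Errfi1 and Dusp1, brakes on growth factor signalling, were 1.82 and 1.22 above. Among the 11 immediate early and cAMP targets the median was 0.28 at 1 h and 0.62 at 3 h but -0.10 at 6 h, where Per1 was highest. Fos, Nr4a1 and Ier2 were highest at 3 h (1.42, 1.31 and 1.31), an array on which Per1 was lower than at 1 and 6 h. All these ratios share the lone vehicle array. Each is from an array after DHT, so answers to DHT, to glucocorticoids and to cAMP cannot be told apart. The part of either list in the level of Per1 was not tested.

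Genes whose course over the 7 arrays most resembled that of a member were sought among those with a log2 range of at least 1. For Per1 they were Ighg3 (Pearson r = 0.946), Wrnip1 (0.889), Apod (0.869), Pth1r (0.851) and Rassf1 (0.840) of 755 genes. For Dbp they were 2210010C04Rik (0.913), Myog (0.910), Prss2 (0.897), Rab20 (0.897) and Six2 (0.855) of 754. Each of these was highest at 24 h, and Prss2, a pancreatic trypsinogen gene, had 451.1 there against at most 91.6 on the other arrays. The part of such RNA in the 24 h signal of Dbp was not tested. For the brighter Nfil3 probe set they were Tcp10b (0.923), Myoz1 (0.915), Ctrl (0.914), Nkx1-2 (0.905) and Matn4 (0.898) of 755. No clock gene was among the 15. Of the members, however, only Nr1d1, Nr1d2, Dbp and Tef had a log2 range of at least 1, so the others could not appear. With 7 arrays and this many genes, values of this size describe these arrays only.

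Marker genes of the cell types of the uterus were read on the same arrays. The 7 smooth muscle markers summed to 29716 on vehicle, 27016 to 27904 on the early arrays and 36134 to 49564 on the late ones. Late means were above vehicle for 6 of them and below it for 1, Des (log2 difference -0.01). None of the 7 passed in limma. The 6 of 7 stroma markers above the filter summed to 45482.5 on vehicle, 45160 to 48062 early and 52068 to 69785 late. Among these, on the brightest probe sets, the late mean was above vehicle for the collagen genes Col1a1 (log2 difference 1.23), Col1a2 (0.81) and Col3a1 (1.23), and not for Dcn (-0.07) or Pdgfra (-0.40), with Lum at 0.01. None of the 6 passed in limma. Dimmer probe sets gave 0.49 for Col1a1, -0.40 for Col1a2, 1.61 and 1.11 for Col3a1, and 0.57 for Pdgfra. Both sums were highest at 24 h, where Tef and Nr1d2 were at vehicle level and Arntl was lowest. The 9 epithelium markers (13603 to 15713 early, 13738 to 15855 late), the 6 endothelium markers (2215 to 2625, then 2316 to 2703) and the 5 macrophage markers (4468 to 5079, then 4389 to 5396) overlapped between the phases. The 3 adipocyte markers summed to 3044 on vehicle, 2791 to 3596 early and 2197 to 2694 late, but did not move together. Their late means differed from vehicle by -0.75 for Adipoq, -0.05 for Fabp4 and 0.85 for Lep (log2). Late minus early was -0.47, 0.24 and -0.39 in the same order. The T cell markers Cd3e and Cd3g were under the floor throughout. In a whole uterus fewer cells of a type and less RNA per cell cannot be told apart, and the part of these differences in the clock gene signals was not tested.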

How the data were processed

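Total RNA from pooled uteri was hybridised to 7 Affymetrix U74Av2 arrays, 1 per group. Each deposited value is a linear signal intensity that the authors computed with MAS5, per the submitters' processing notes. Scaling to a common target was checked on the values, with array medians from 227.4 to 237.0, and kept. The genome build is not given in the sources used here. Of 12488 probe sets, 66 controls were left out, and 10833 of the others named 1 gene, 396 several and 1193 none in the array's annotation table. Signals were raised to a floor (145.9), log2 was taken and 8421 probe sets with a mean above the floor were kept. limma 3.58.1 in R 4.3.3 compared early (1, 3 and 6 h), late (12, 18 and 24 h) and vehicle arrays, and a 24 h cosine, with a variance trend, 4 residual degrees of freedom in each, two-sided, Benjamini-Hochberg at 0.05. These tests take the single vehicle array to be as variable as the rest, and nothing says that arrays stand for separate experiments, so the p-values measure only the spread between these arrays. Tested on simulated data of 8421 probe sets, 95.0% of 200 changed by 2 log2 units between phases and 89.5% of 200 with a cosine amplitude of 1.5 were recovered. The largest member values were smaller, a late minus early of -0.60 (Per1) and an amplitude of 0.66 (Nr1d1). Recovery at such sizes was not simulated, so these shares do not describe it. The number of arrays limits the precision of every value. All probe sets of the 10 genes are named. Other named genes come from fixed lists, in the glucocorticoid and immediate early lists only where at least 2-fold, and from the 5 highest correlations with Per1, Dbp and Nfil3. The members and lists were chosen with earlier results of these data known. Alternatives changed the floor, the filter, the scaling (quantile), the variance trend, the fold threshold and the arrays.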

Additional observations from a re-analysis of the deposited data

How the results depend on the processing

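No alternative brought a clock gene past the threshold, the lowest adjusted p over 494 values being 0.103 in limma. Of those values 478 kept their direction and side of the threshold and 16 changed sign, the largest of these values being -0.33. For early against vehicle these were Nr1d1 without 6 h (0.03; range without single arrays -0.33 to 0.03), and the brighter Nfil3 probe set without 6 h (0.05; range -0.43 to 0.05) and with the floor at the 60th percentile (0.06). For late against vehicle they were Per2 with quantile normalization (0.00), Cry1 without 18 h (0.02) and without 24 h (0.08; range -0.18 to 0.08), and Dbp with the high floor (0.09) and without 12 or 18 h (0.18 each; range -0.60 to 0.18). For late against early they were Per3 with the high floor (-0.01), without 6 h (-0.11) and without 18 h (0.00 after rounding; range -0.11 to 0.17), Dbp with the floor at the 20th percentile (-0.03) and without 24 h (-0.33; range -0.33 to 0.45), and the brighter Nfil3 probe set without 3 h (0.12; range -0.37 to 0.12). In the cosine fit that probe set turned its phase without 3 h (amplitude 0.10; range 0.05 to 0.42). The cause was not tested.

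Counts over all probe sets also depended on the setting. Early against vehicle, limma called 23, 121 without the filter, 14 with quantile normalization and 0 without the variance trend (541 at an unadjusted p under 0.05), and 8 to 55 when single arrays were left out. Late against vehicle it called 26, 42 with the high floor, 137 without the filter, 15 with quantile normalization and 0 without the trend (985 unadjusted), and 0 to 73 without single arrays, 0 without 12 h (798 unadjusted) or 18 h (889 unadjusted). Late against early it called 0 to 1 without single arrays, the 1 without 6 h, and the cosine fit 0 throughout (645 to 1487 unadjusted over its alternatives). Members at least 2-fold from vehicle numbered 1 at 18 h with the low floor (Per2). At 1.5-fold there was 1 on the 1 h array, 4 on the 6 h array, 3 on the 12 h array, and 2 on each of the 18 and 24 h arrays. Clock, Per2 and the dimmer Nfil3 probe set had no value with the high floor, as they did not reach it. No paired analysis was possible because each group has 1 array and the labels give no replicate numbers. Per2, Dbp and the dimmer Nfil3 probe set lay near the floor, which limits their ratios.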
